A study of Mus musculus with 2 samples.

Results

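Transcripts of 10 killer genes of lymphocytes (Gzma, Gzmb, Gzmk, Prf1, Nkg7, Klrd1, Ctsw, Fasl, Ifng and Xcl1) were followed through single-cell RNA sequencing of whole mouse lung, among 32286 features counted. The set was drawn up with it already known that Gzma was lower after tumor conditioned media, so that difference is given as a description. Raw counts of unique molecular identifiers (UMIs, 1 for each captured transcript) were summed over droplets sorted by marker genes into natural killer (NK), CD8 T, CD4 T and other classes. No killer gene served as a marker.

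Both libraries came from female BALB/c mice, 9 to 10 weeks old, that received intravenous injections over 3 weeks. The control group (CM) received control media, and the other group (TCM) received medium in which pieces of 4T1 mouse breast tumors, pooled from 3 tumors, had been kept. No tumor cells were injected into these animals. Each group had 1 library and the number of mice in a library was not stated, so variation among mice could not be estimated and no test was possible. Every interval (95%) covers counting error only.

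Cytotoxic lymphocytes carry granules that they release onto a target cell. Perforin (Prf1) opens the target membrane and granzymes, which are serine proteases, enter and start cell death. NK cells hold such granules ready for use, whereas CD8 T cells mostly acquire them after activation. Resting mouse NK cells are known to hold granzyme B and perforin transcripts with little of the proteins, so RNA levels do not stand for protein levels here.

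Gzma (ENSMUSG00000023132) lies on the minus strand of chromosome 13, 113093825 to 113100981 in build GRCm38, and Gzmk lies 70626 bases away on the same strand. Gzmb (ENSMUSG00000015437) is on chromosome 14, 56258838 to 56262260, minus strand. Prf1 is on chromosome 10, 61297833 to 61304680, plus strand, and Xcl1 on chromosome 1, 164931644 to 164935527, minus strand. All 10 are protein-coding genes in the GENCODE vM21 annotation, and UMIs were counted per gene. The promoters of the 4 genes on which the comparisons below turn are shown as 250 bases before and 50 bases after the RefSeq start (GRCm38.p6), read 5′ to 3′ on the strand of the gene. The windows are chr13:113100932-113101231 for Gzma, chr10:61297586-61297885 for Prf1, chr14:56262285-56262584 for Gzmb and chr1:164935473-164935772 for Xcl1. Capitals mark matches, on either strand, to TGTGGT (the core motif of RUNX factors), AGGAAG (ETS), GGTGTGA (T-box), TGANTCA (AP-1) and TTCNNNGAA (STAT).
Gzma: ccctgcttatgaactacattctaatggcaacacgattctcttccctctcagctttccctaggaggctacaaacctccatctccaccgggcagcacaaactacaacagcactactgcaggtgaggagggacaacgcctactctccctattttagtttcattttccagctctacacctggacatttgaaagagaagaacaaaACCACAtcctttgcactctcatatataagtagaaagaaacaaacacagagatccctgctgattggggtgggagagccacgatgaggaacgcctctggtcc
Prf1: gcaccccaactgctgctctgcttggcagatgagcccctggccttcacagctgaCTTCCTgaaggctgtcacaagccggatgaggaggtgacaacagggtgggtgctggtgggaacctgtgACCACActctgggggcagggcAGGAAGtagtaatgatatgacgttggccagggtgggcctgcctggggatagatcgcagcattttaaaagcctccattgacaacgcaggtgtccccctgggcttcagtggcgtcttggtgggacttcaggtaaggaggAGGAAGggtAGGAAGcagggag
Gzmb: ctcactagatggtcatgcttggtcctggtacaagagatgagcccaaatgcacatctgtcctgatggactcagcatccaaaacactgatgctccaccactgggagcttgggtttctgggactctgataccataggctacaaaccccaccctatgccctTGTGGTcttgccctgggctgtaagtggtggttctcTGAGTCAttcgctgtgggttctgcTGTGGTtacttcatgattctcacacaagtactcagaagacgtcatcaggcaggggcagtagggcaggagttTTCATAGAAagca
Xcl1: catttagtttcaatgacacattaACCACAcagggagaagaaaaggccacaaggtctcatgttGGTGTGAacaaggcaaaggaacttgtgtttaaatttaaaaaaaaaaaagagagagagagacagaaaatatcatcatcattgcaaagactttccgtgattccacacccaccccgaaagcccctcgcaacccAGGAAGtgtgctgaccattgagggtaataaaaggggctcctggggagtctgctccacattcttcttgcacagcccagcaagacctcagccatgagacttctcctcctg

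The RUNX letters stood in all 4 windows and in that of Nkg7, 5 of the 8 killer genes with a promoter in the RefSeq table, and in 16.8% of 32851 promoters. The Gzma window held them once, 50 bases before the start, and none of the other 4 motifs. The Gzmb window held 2 RUNX matches, at 93 and 34 bases before the start, and was the single member window with the AP-1 letters, which 7.81% of all promoters hold. T-box letters stood in the windows of Xcl1, Nkg7 and Gzmk (3.98% of promoters), ETS letters in those of Prf1, Xcl1, Nkg7 and Fasl (35.4%), and STAT letters in those of Gzmb, Nkg7 and Ifng (8.30%). These matches describe the letters of the windows and are no evidence of binding.

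In all, 31944151 UMIs were counted for CM and 36648719 for TCM. The droplets kept had 500 or more UMIs, 200 or more genes and no more than 10% mitochondrial UMIs, 7988 in CM and 7707 in TCM, with medians of 2085 and 2346 UMIs. Of the kept barcodes, 93 occurred in both libraries, none of them in the NK class of both. The NK class needed at least 2 UMIs of 9 NK receptor genes (Ncr1, Klre1 and others), no Cd3 UMI and no second lineage. Of the 9 markers 8 were detected in each library, and the genes that led the class were Gzma, Ccl5, Ncr1, Nkg7 and Prf1. B cell markers summed to 4 and 3 UMIs in NK droplets, a low sum set by the gate, which left out droplets of the B lineage. Monocyte and dendritic markers, which the gate did not exclude, summed to 175 and 100 UMIs and to 19 and 2 UMIs.

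NK droplets numbered 200 in CM, 2.50% of the kept droplets (2.17 to 2.87%), and 106 in TCM, 1.38% (1.13 to 1.66%). Their share in TCM was 0.549 of that in CM (0.430 to 0.699), and their median depth was 1976 and 1857 UMIs. Neutrophil droplets went from 201 to 1379. Counted over the kept droplets outside the neutrophil and monocyte gates, NK droplets still made up a lower share in TCM, 1.91% (1.57 to 2.30%) against 2.70% (2.34 to 3.09%) in CM. Counted over NK, T and B droplets alone, NK droplets made up 13.1% in CM (11.5 to 15.0%) and 11.2% in TCM (9.24 to 13.3%), and these intervals overlap. Counted over NK and T droplets, they made up 21.8% (19.2 to 24.6%) and 16.6% (13.8 to 19.7%).

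Most of the killer genes had their highest level in NK droplets in both libraries. Gzma stood at 1568 UMIs per 100000 UMIs of the class (CP100k) in CM and 1581 in TCM, and NK droplets, which carried 1.68% and 0.737% of the kept UMIs, held 67.1% and 67.7% of all Gzma UMIs in kept droplets. Classes were ordered where they had at least 20 droplets in each library, which 20 classes did. The next such class in CM was CD8 T at 137 CP100k, and the T droplets without Cd4, Cd8 or Trdc followed at 19.7. In TCM these T droplets (21.8) and CD8 T (20.5) came next with overlapping intervals. Below that size, the 9 CM and 11 TCM gamma-delta T droplets held Gzma at 107 and 197 CP100k, and the 10 and 12 droplets with NK markers and a Cd3 UMI at 1412 and 1147. NK was the highest of the 20 classes for each of the 10 genes in TCM and for 8 in CM, the exceptions being Gzmb, highest in mast or basophil droplets, and Gzmk, highest in CD8 T droplets. The intervals of Gzmk in CD8 T (4.33 CP100k at the lower end) and NK (5.12 at the upper end) overlap in CM. In TCM the NK intervals of Gzmk (lower end 3.13) and Ifng (1.74) overlap those of CD8 T (upper end 4.24) and CD4 T (3.51). NK droplets held from 17.3% (Gzmk) to 67.1% (Gzma) of a member's kept UMIs in CM. In TCM this ran from 33.8% (Ctsw) to 67.7% (Gzma).

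**Figure D1:**
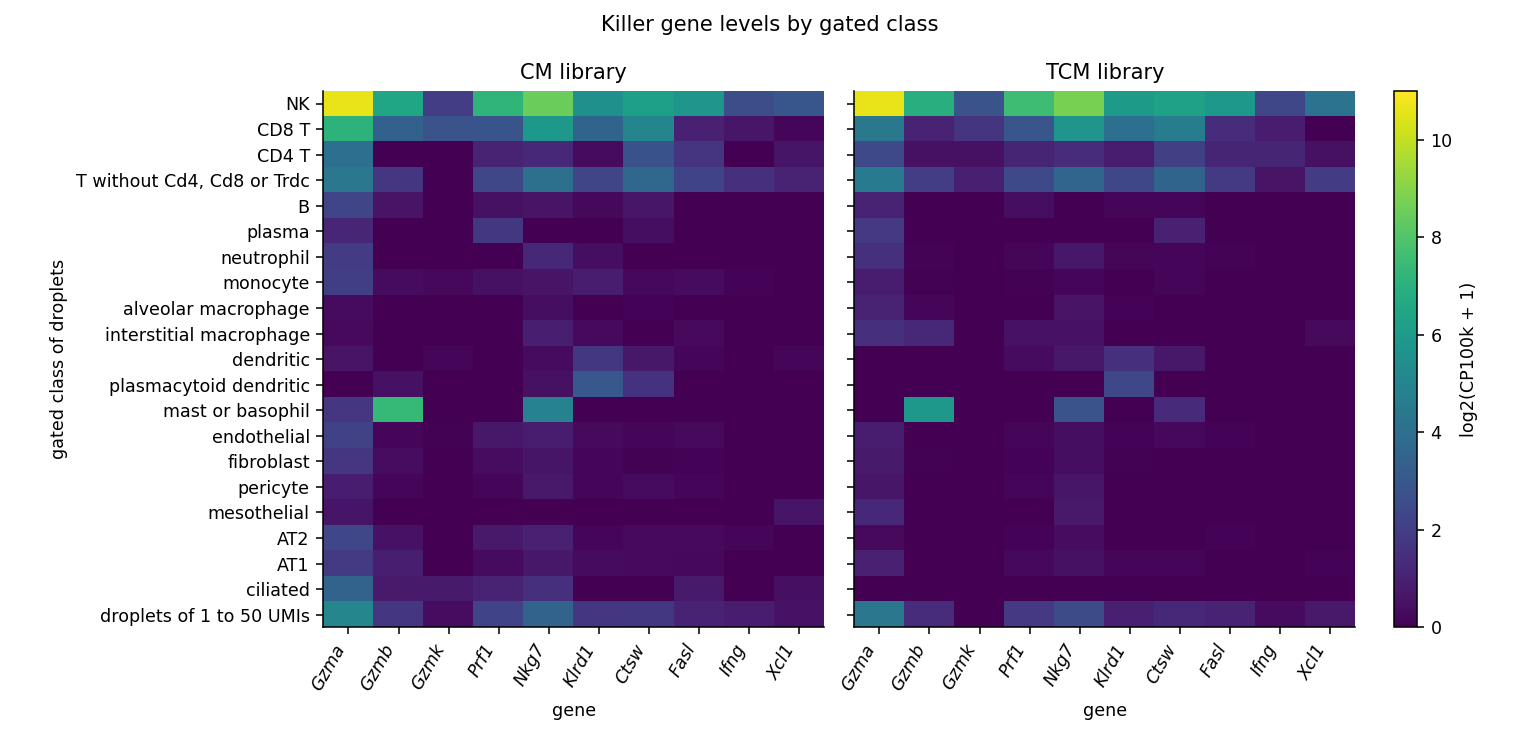
Level of each killer gene, as log2(CP100k + 1) in colour, in 20 gated classes (rows) and in droplets of 1 to 50 UMIs, for the CM and the TCM library. The NK row is brightest for nearly all genes in both libraries, Gzmb is also bright in mast or basophil droplets, and the CD8 T row is brighter for Gzma in CM (137 CP100k) than in TCM (20.5 CP100k).

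Over 40 profiles, the 20 classes in each library, the gene whose log2(CP100k + 1) followed Gzma most closely was Prf1 (Pearson r 0.944 across profiles), out of 14510 genes. Cd160 (0.924), Fasl (0.921), Eomes (0.911) and Samd3 (0.900) came next. Cd160 is a receptor of NK and T cells and Eomes a T-box factor of the NK lineage. Gzmb ranked 178 with r 0.637, the lowest of the members. These profiles share 2 libraries and are not independent, so the coefficients are a description.

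The question the set was chosen for was whether Gzma was lower after TCM and whether the other killer genes followed. Over all kept droplets, Gzma was counted 10150 times in CM and 4632 times in TCM, 39.2 and 17.2 CP100k, a log2 ratio of −1.19. Gzmb stood at 4.40 and 1.42 CP100k (−1.63), Gzmk at 0.290 and 0.111 (−1.38) and Ifng, which encodes interferon gamma, at 0.220 and 0.0780 (−1.50). These 4 genes met the rule for a call, which asked for at least 20 UMIs over both libraries, a log2 ratio of at least 1 in size and an interval that leaves out 0. Prf1 (−0.68), Nkg7 (−0.84), Klrd1 (−0.63), Ctsw (−0.97), Fasl (−0.94) and Xcl1 (−0.55) were lower with intervals below 0 and did not meet it. The Xcl1 difference rested on 1 CM droplet with 38 of the 106 UMIs, and without the top droplet of each library it was −0.14 (−0.66 to 0.37). After thinning, the calls of Gzmk (−0.43, −1.54 to 0.66) and Ifng (−0.65, −2.14 to 0.76) were lost. Thus 4 of 10 members were called lower and none higher, and among 16095 genes 1.75% were called lower and 2.84% higher. Since the set was chosen on this contrast, nothing is read from the count.

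Where the droplets of other lineages left the denominator, the ratios came closer to 0. Without the neutrophil and monocyte droplets, Gzma had a log2 ratio of −0.94 (−0.99 to −0.89). Over the NK, T and B droplets it went from 232 to 163 CP100k, −0.51 (−0.57 to −0.45). In that set Prf1 stood at 20.7 and 20.9 CP100k (0.02, −0.16 to 0.19), Nkg7 at 60.1 and 56.5 (−0.09, −0.19 to 0.01) and Gzmb at 14.1 and 12.4 (−0.18, −0.40 to 0.04). Xcl1, by contrast, had 40 and 59 UMIs there, a log2 ratio of 1.27 (0.67 to 1.89). Gzma was also read on both sides of the 500 UMI limit. Just inside the limit, droplets of 500 to under 1000 UMIs held 65.2 and 51.3 CP100k (−0.35, −0.49 to −0.20). Just outside it, droplets of over 200 and under 500 UMIs held 42.7 and 19.2 (−1.16, −1.36 to −0.95).

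**Figure D2:**
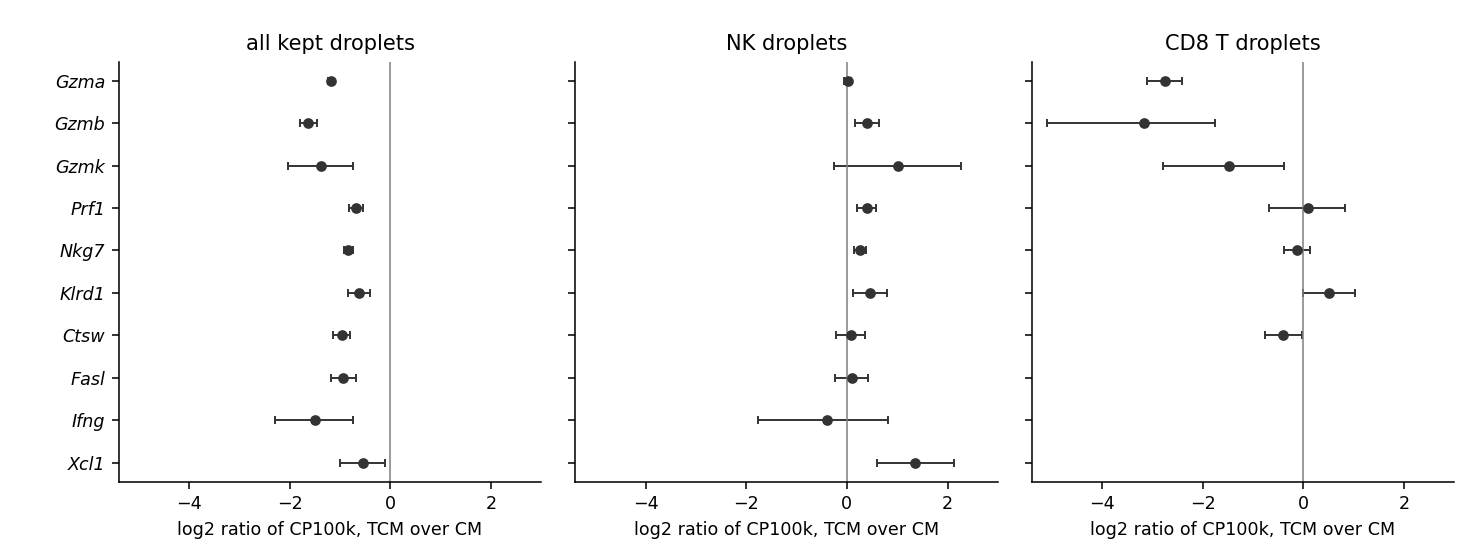
Log2 ratio of CP100k, TCM over CM, with 95% counting intervals, for members with at least 20 UMIs over both libraries in all kept droplets, NK droplets and CD8 T droplets. All 10 points lie below 0 over all kept droplets. In NK droplets 9 of 10 lie above 0, and in CD8 T droplets Gzma, Gzmb and Gzmk lie far below 0.

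Within NK droplets, Gzma did not follow its fall over the whole lung. The 200 CM droplets held 6810 Gzma UMIs and the 106 TCM droplets 3137, a log2 ratio of 0.01 (−0.05 to 0.07). Per droplet, the median was 31 Gzma UMIs in CM (lowest 0, highest 156) and 27.5 in TCM (lowest 0, highest 102). With every droplet thinned to 1000 UMIs, which left 152 CM and 77 TCM droplets, the mean was 16.5 ± 8.15 and 15.9 ± 9.41 UMIs (SD over droplets, which are not replicates) and the medians were 16.5 and 15. The distributions overlap over their whole range. Droplets with at least 10 Gzma UMIs made up 82.5% of the NK droplets in CM and 81.1% in TCM.

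**Figure D3:**
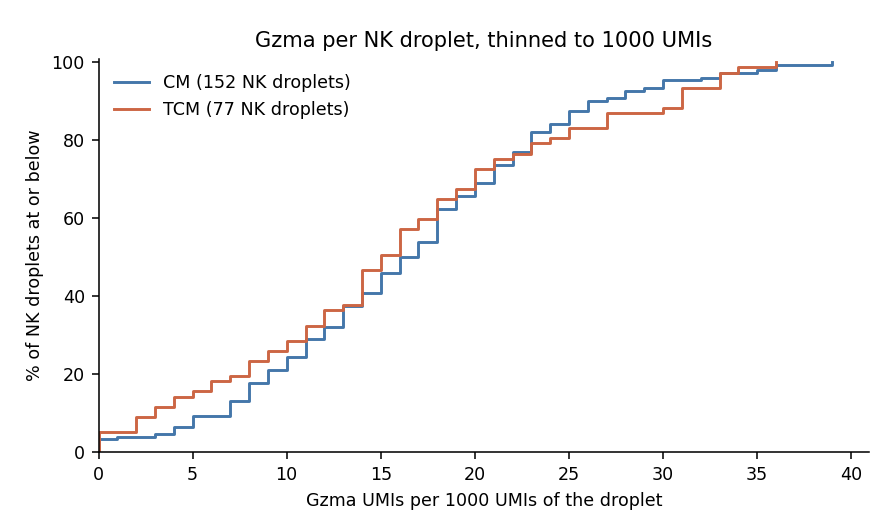
Cumulative share of NK droplets (vertical axis, %) at or below a number of Gzma UMIs (horizontal axis) after thinning to 1000 UMIs, for 152 CM and 77 TCM droplets. The curves run close together and cross, with medians of 16.5 and 15 UMIs and highest values of 39 and 36.

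Of the other granule proteases, Gzmb had 393 UMIs in CM and 238 in TCM NK droplets, 90.5 and 120 CP100k, a log2 ratio of 0.41 (0.17 to 0.64). Gzmk, a granzyme that marks part of the memory T cells, had 13 and 12 UMIs (1.01, −0.25 to 2.26), and 8 of the 12 TCM UMIs came from 1 droplet. Ctsw, a cysteine protease of NK and CD8 T cells, stood at 73.7 and 77.6 CP100k (0.08, −0.21 to 0.36). None of these 3 differences met the rule for a call.

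For granule release, Prf1 had 628 and 377 UMIs, 145 and 190 CP100k, a log2 ratio of 0.39 (0.21 to 0.58). Nkg7, a granule membrane protein needed for degranulation, stood at 357 and 428 CP100k (0.26, 0.14 to 0.38). Klrd1 (CD94, the partner of the NKG2 receptors) stood at 44.9 and 62.0 CP100k (0.47, 0.13 to 0.80). The intervals of all 3 lie above 0, at less than a doubling.

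Of the secreted and surface effectors, Fasl, the ligand of the death receptor Fas, stood at 54.3 and 58.0 CP100k (0.09, −0.24 to 0.42). Ifng had 23 and 8 UMIs (−0.39, −1.76 to 0.82), too few to show a difference at this depth. Xcl1, a chemokine that attracts the dendritic cells bearing Xcr1, had 29 and 34 UMIs, 6.68 and 17.1 CP100k, and was called higher in TCM (1.36, 0.60 to 2.13). It was seen in 20 of 200 CM and 15 of 106 TCM droplets, and 1 TCM droplet held 32.4% of the TCM UMIs. Without the 4 droplets with most Xcl1 in each library the levels were 4.01 and 5.88 CP100k and the call was lost (0.55, −0.69 to 1.73).

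In all, 9 of 10 members were higher in TCM NK droplets and 1 lower, with 1 called higher and none called lower. Among the 4717 genes compared in NK droplets, 1.89% were called higher and 1.51% lower. The members' median log2 ratio was 0.33, beside 0.04 for all genes, and 5 of 10 members had intervals above 0, beside 4.83% of all genes. Estimated free RNA, the transcripts from outside the cell that a droplet takes up, made up 6.49% of the UMIs of CM and 12.3% of those of TCM NK droplets. It accounted for 2.17 and 2.48 CP100k of Gzma and less for each other member, far under the measured levels.

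**Figure D4:**
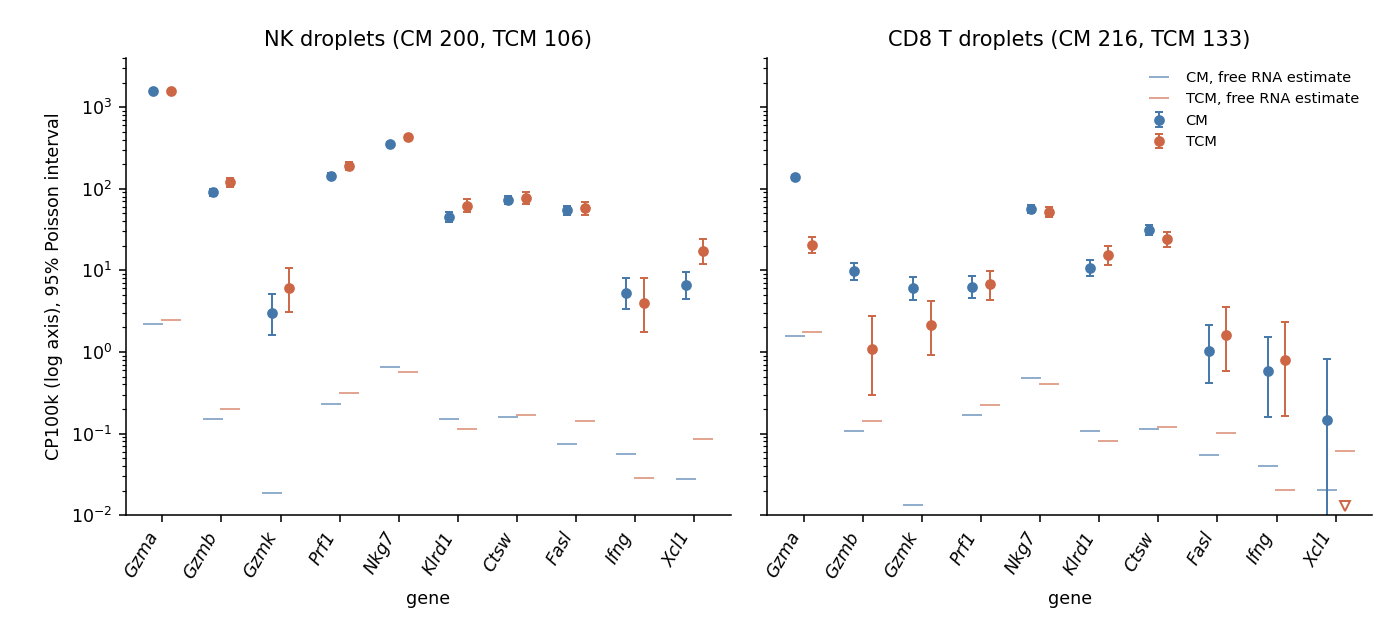
CP100k of the 10 genes (log axis) with 95% Poisson intervals in NK droplets (left) and CD8 T droplets (right), CM in blue and TCM in orange. Short lines give the level expected from free RNA, and the open triangle at the foot marks Xcl1 in TCM CD8 T droplets, with 0 UMIs. In NK droplets the CM and TCM points of Gzma coincide, and in CD8 T droplets Gzma, Gzmb and Gzmk are lower in TCM.

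Shares of NK droplets with a UMI were also compared. After thinning, Gzma was seen in 96.7% of CM (92.5 to 98.9%) and 94.8% of TCM NK droplets (87.2 to 98.6%), and without thinning in 96.5% and 95.3%. B droplets, which should lack it, gave 2.94% and 0.870% with median depths of 1902 and 1843 UMIs before thinning. Prf1 was seen in 69.1% and 70.1% of the thinned NK droplets, Gzmb in 41.4% and 45.5%, Klrd1 in 38.2% and 46.8% and Xcl1 in 3.95% and 9.09%, with overlapping intervals in each case. For Nkg7 the share was lower in TCM while the level was higher, at 97.4% (93.4 to 99.3%) and 92.2% (83.8 to 97.1%) thinned and 92.5% and 87.7% unthinned, again with overlapping intervals. Gzma and Gzmb were found together in 63 of 152 CM and 35 of 77 TCM droplets, Gzma without Gzmb in 84 and 38, and Gzmb without Gzma in none. At least 3 of the 10 genes were seen in 93.4% and 89.6% of thinned NK droplets, in 4.74% and 5.04% of CD8 T droplets and in no CD4 T or B droplet.

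CD8 T droplets, gated on Cd3 and Cd8 transcripts, numbered 216 in CM (2.70% of kept droplets, 2.36 to 3.08%) and 133 in TCM (1.73%, 1.45 to 2.04%). Their leading genes were Cd8b1, Cd8a and Cd3e, and NK marker UMIs in them summed to 20 and 8. Here Gzma fell, from 933 UMIs to 76, 137 to 20.5 CP100k, a log2 ratio of −2.75 (−3.10 to −2.41). Gzmb fell from 66 to 4 UMIs (−3.17) and Gzmk from 41 to 8 UMIs (−1.49, −2.79 to −0.38). These 3 of the 7 members with at least 20 UMIs were called lower and none was called higher, while 1.99% of 5314 genes were called lower and 2.31% higher.

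These 3 differences rested on few droplets. A Gzma UMI was present in 18 of 216 CM droplets (8.33%) and 10 of 133 TCM droplets (7.52%), and 4 CM droplets held 892 of the 933 UMIs (95.6%). They held 475, 239, 146 and 32 Gzma UMIs in 28688, 26361, 11486 and 10231 UMIs, against a class median of 2916. All 4 also had UMIs of the proliferation genes Mki67 or Top2a (13, 11, 2 and 21 UMIs) and of the NK markers (1, 1, 4 and 9 UMIs). In TCM the highest droplets had 30, 29, 7 and 4 Gzma UMIs, 70 of the 76 in all, and 1 CD8 T droplet had over 10000 UMIs, against 4 in CM. The 2 highest TCM droplets had 5 and 2 NK marker UMIs. Droplets with at least 2 NK marker UMIs, 3 in CM and 2 in TCM, held 195 of 933 and 59 of 76 Gzma UMIs, and the rest of the class stood at 113 and 4.65 CP100k. Without the 4 droplets with most Gzma in each library, the levels were 6.81 and 1.67 CP100k (−2.03, −3.56 to −0.78). Thinned to 1000 UMIs, the direction turned, with a log2 ratio of 0.24 (−0.44 to 0.91), and the share with a Gzma UMI was 4.74% (9 of 190) in CM and 5.88% (7 of 119) in TCM. As a mean over droplets, in which a deep droplet counts no more than a shallow one, the ratio was −0.16. Most of the Gzma UMIs behind the CD8 T difference thus lay in 4 deep CM droplets with proliferation transcripts. Whether any of them held more than 1 cell was not tested. Without the 6% of droplets with the highest Scrublet doublet scores the ratio was −2.67. Scrublet marked no droplet by its own threshold, so this ratio cannot tell whether they held more than 1 cell.

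**Figure D5:**
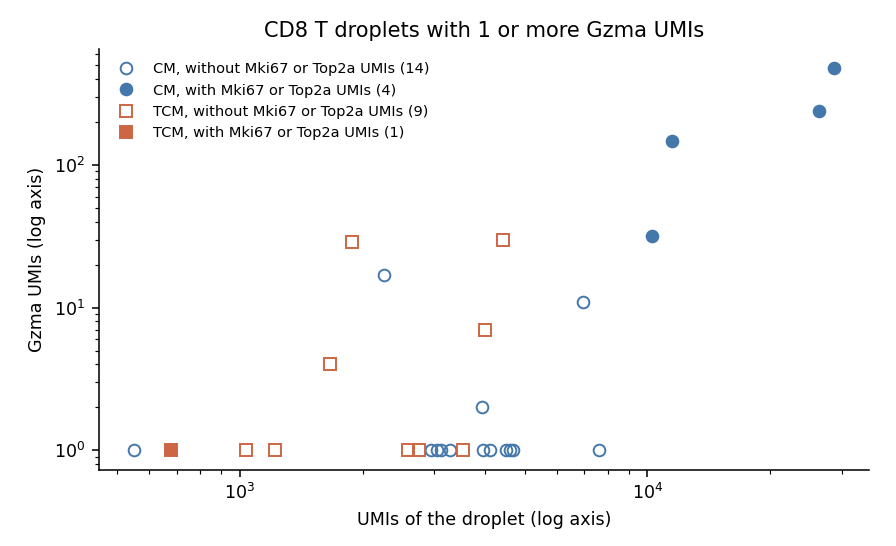
Gzma UMIs (log axis) against total UMIs of the droplet (log axis) for the 18 CM and 10 TCM CD8 T droplets with at least 1 Gzma UMI. Filled marks have Mki67 or Top2a UMIs. The 4 filled CM points at the upper right hold 892 of the 933 Gzma UMIs of their class.

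The Gzmk UMIs of CM came from 4 CD8 T droplets, 24 of them from 1, and the Gzmk ratio turned to 0.76 as a mean over droplets and to 0.26 after thinning. Gzmb had 23 UMIs in each of 2 of the deep CM droplets, and its ratio was −0.88 as a mean over droplets. After thinning it was seen in 4 of 190 CM and 0 of 119 TCM droplets, with an interval for TCM that reached 3.05%. The other members did not show this fall. Nkg7 stood at 56.5 and 51.7 CP100k (−0.13, −0.39 to 0.12), Prf1 at 6.33 and 6.73 (0.09, −0.69 to 0.83) and Klrd1 at 10.7 and 15.3 (0.51, −0.01 to 1.03). Ctsw went from 31.5 to 24.0 CP100k (−0.40, −0.77 to −0.03). Fasl (7 and 6 UMIs), Ifng (4 and 3) and Xcl1 (1 and 0) were too low to compare. The median of the 7 was −0.40, beside −0.01 for all genes.

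In CD4 T droplets, 130 in CM and 109 in TCM, only Gzma and Ctsw reached 20 UMIs. Gzma was called lower, with 58 and 11 UMIs (15.4 and 4.41 CP100k, −1.81), but 55 of the 58 lay in 1 CM droplet, and without the top droplet of each library the ratio turned to 1.32. Ctsw had 22 and 8 UMIs (−0.87) and an interval that included 0. Beside this 1 of 2 members called lower, 1.49% of 4029 genes were called lower and 2.23% higher. The T droplets without Cd4, Cd8 or Trdc, 357 and 278 in number, held Gzma at 19.7 and 21.8 CP100k (0.15, −0.20 to 0.50). In them, 7 CM and 4 TCM droplets with at least 2 NK marker UMIs carried 116 of 144 and 67 of 133 Gzma UMIs. Xcl1 had 8 and 17 UMIs in this T class (1.35, 0.06 to 2.77), and 5 and 10 of them lay in those droplets with NK markers. A single TCM droplet held 7. Without the top droplet of each library the Xcl1 levels were 0.685 and 1.65 CP100k.

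Gzmb was the one member with a strong source outside lymphocytes. Mast or basophil droplets, 26 in CM and 20 in TCM, held 145 Gzmb UMIs in 14 droplets and 39 in 8 droplets, 166 and 58.1 CP100k (−1.52, with an interval below 0). A single CM droplet of 9871 UMIs that had passed the gate for type 2 innate lymphoid cells held 264 Gzmb UMIs, with 38 UMIs of the mast or basophil markers beside 84 of its own. NK droplets held 34.5% of the Gzmb UMIs of kept CM droplets and 62.1% of those in TCM. The lower Gzmb over the whole lung thus included a fall outside NK droplets from 747 to 145 UMIs (−2.43, −2.70 to −2.18), while Gzmb in NK droplets was not lower. Nkg7 was also seen in mast or basophil droplets, with 25 and 4 UMIs, 21 of the CM UMIs in 1 droplet.

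Gzma was also found outside NK and T droplets. In droplets of 1 to 50 UMIs Gzma stood at 33.4 CP100k in CM and 20.2 in TCM, and in B droplets at 3.88 and 1.11. Over all droplets outside the NK class, T droplets included, Gzma went from 13.1 to 5.60 CP100k (−1.23, −1.32 to −1.14). Of these 3340 CM and 1495 TCM UMIs, CD8 T droplets held 933 and 76, and droplets that passed no gate held 522 and 290. Among those without a gate, the 10 droplets with most Gzma held 272 and 237 UMIs. At least 10 Gzma UMIs were found in 15 CM and 7 TCM droplets without a gate. They were also found in 21 and 10 droplets with a lymphocyte gate and a second lineage. The parts of free RNA and of these droplets in the difference outside the NK class were not tested.

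The other genes of killing came from lists of their pathways. In NK droplets, of 9 compared of the 10 genes for granule assembly, release and protection, all 9 were higher in TCM and none was called, with a median of 0.28. Srgn, the proteoglycan core of the granule, stood at 82.9 and 108 CP100k. The free RNA profile itself held Srgn at 57.5 and 122 CP100k, which is not the level that free RNA adds to NK droplets. Free RNA made up an estimated 6.49% of the UMIs of NK droplets in CM and 12.3% in TCM. Cst7, a cathepsin inhibitor, stood at 13.6 and 24.2 CP100k (0.83, 0.25 to 1.41). Serpinb9, which protects the killer from its own granzyme B, stood at 72.5 and 81.7 CP100k. None of the 7 other granzyme genes reached 20 UMIs. Of the 11 receptors and adaptors 7 were higher and 4 lower, with none called, and Il2rb, the receptor chain for interleukins 2 and 15, stood at 119 and 153 CP100k (0.36, 0.15 to 0.57). Of 9 transcription factors 8 were higher and none was called, and Eomes (0.17) and Tbx21 (0.10), the T-box factors of NK cells, were near 0.

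Among death ligands, cytokines and chemokines, 4 of 11 were compared in NK droplets, and 1 was called. Ccl4, a chemokine that activated NK cells release, rose from 288 to 575 UMIs, 66.3 to 290 CP100k (2.13, 1.92 to 2.34). It was seen in 89 of 200 CM and 56 of 106 TCM droplets. At least 10 Ccl4 UMIs were found in 7 CM droplets (3.50%) and 17 TCM droplets (16.0%), and the 10 highest TCM droplets held 68.0% of the TCM UMIs. Those 17 droplets also held 22 of the 34 Xcl1 UMIs and 86 of the 238 Gzmb UMIs of TCM NK droplets. The related Ccl3 stood at 32.9 and 43.4 CP100k (0.40, −0.01 to 0.79), and Ccl5 at 2289 and 2374 (0.05).

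Of the maturity genes of NK cells, 5 late genes were compared, 4 higher and 1 lower with none called, and 6 early genes, 3 higher and 3 lower. Emb, an early adhesion gene, was called higher, with 44 and 43 UMIs (1.10, 0.46 to 1.74). Klrg1, a late marker, stood at 29.0 and 34.3 CP100k and Cd27, an early one, at 7.14 and 12.6. Cd27 was named after its value was seen, and Emb and Cd27 were both among the higher early genes. They do not stand for their list, whose median log2 ratio was −0.07, beside 0.24 for the late genes.

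In CD8 T droplets, Serpinb6b, from the list for granule assembly, release and protection, was called lower with 44 and 5 UMIs (−2.27). Tyrobp, a signalling adaptor of NK and myeloid cells, was called higher with 9 and 39 UMIs (2.99), and Irf8 with 7 and 20 UMIs (2.38). Free RNA was estimated to give 1.49 and 5.57 CP100k of Tyrobp against the measured 1.33 and 10.5, and neutrophil markers in these droplets went from 3 to 20 UMIs, with 1 of 4 at 0 in each library. Their part in the result was not tested. The 6 genes of naive T cells included 5 higher in TCM, none called, and of 5 effector and memory genes compared none was called. In CD4 T droplets Ccl5 (12 and 22 UMIs, 1.47) and Fas (8 and 16 UMIs, 1.59) were called higher and Cxcr6 (25 and 6 UMIs, −1.47) lower. Free RNA was estimated to give 3.26 and 5.53 CP100k of Ccl5 against the measured 3.19 and 8.82, so the CM level was at that background and most of the TCM level was too.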

How the data were processed

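The deposited matrices hold raw UMI counts per gene and droplet for 2 libraries, 737280 barcodes each, made by the authors with a 10x 5-prime kit and Cell Ranger (version 4 in the file header) on build mm10 (GRCm38.p6), with no normalization. Seurat is named in the submitters' processing notes and was not used here. The 10 members and all lists were chosen with earlier results of these data known. Named genes were all members in NK, CD8 T and CD4 T droplets, each listed pathway gene called there and otherwise up to 4 a list with most UMIs (Cd27, Cst7, Tbx21, Mki67 and Top2a were added after their values were seen), and the 5 genes nearest to Gzma.

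Droplets were gated on UMIs of fixed markers (at least 2 for lymphocyte classes, 3 to 4 for others), minimums set on marker counts alone after the files were read. Droplets that passed a lymphocyte gate and a second lineage were left out as possible doublets (194 CM, 130 TCM). Scrublet, by its own threshold, marked none, so it had not worked. UMIs were summed per class and library and divided by all UMIs of the class (CP100k). Intervals are exact Poisson for sums, Clopper-Pearson for shares and conditional binomial for ratios. A sum of 0 was replaced by 3 counts, and genes with 3 or fewer UMIs in both libraries got no ratio. Thinning drew 1000 UMIs a droplet, leaving out shallower ones. Free RNA was profiled in droplets of 1 to 50 UMIs. Its amount was estimated from surfactant (Sftpc, Sftpa1, Sftpb), airway secretory (Scgb1a1) and hemoglobin (Hbb-bs, Hba-a1) genes that the class lacks. Python 3.11.15, numpy 2.4.6, scipy 1.17.1 and scanpy 1.11.5 were used, and ratios and intervals were tested on simulated data. Alternatives covered gates, filters, doublets, scaling, thinning and free RNA.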

Additional observations from a re-analysis of the deposited data

How the results depend on the processing

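No paired analysis was possible because each group had 1 library, and for the same reason no replicate could be left out. The log2 ratio of Gzma in NK droplets, 0.01 as reported, was −0.20 with 1 marker UMI for the gate, −0.052 after thinning and 0.10 with free RNA subtracted. Over all kept droplets, Gzma (−1.19 as reported) was −1.26 with a minimum of 1000 UMIs, −1.13 with median-of-ratios scaling, −0.82 as a mean over droplets and −1.06 after thinning. Gzmk there (−1.38) was −0.34 as a mean over droplets and −0.43 after thinning and Ifng (−1.50) −0.65 after thinning, while Ctsw (−0.97) met the rule for a call in 3 of 12 alternatives. In CD8 T droplets, Gzma (−2.75) was −0.16 as a mean over droplets, 0.24 after thinning and −2.03 without the 4 highest droplets of each library, Gzmb (−3.17) was −0.88 as a mean over droplets, and Gzmk (−1.49) was 0.76 as a mean over droplets and 0.26 after thinning. In CD4 T droplets, Gzma (−1.81) was 0.36 as a mean over droplets and 1.32 without the highest droplet of each library. Leaving out the highest droplets, allowing 1 Cd3 UMI in the NK gate and a free RNA profile of 51 to 200 UMIs were chosen after seeing the data. The cause of these moves was not tested, except that removing or down-weighting the deepest droplets is how those alternatives are built. The members' median in NK droplets, 0.33, ran from 0.10 to 0.42 over 14 alternatives, and Xcl1 from 0.55 to 1.56. With only 1 UMI asked for in each library, called genes in CD4 T droplets went from 150 of 4029 (3.72%) to 264 of 9359 (2.82%). In NK droplets they went from 160 of 4717 (3.39%) to 239 of 9506 (2.51%). In CD8 T droplets they went from 229 of 5314 (4.31%) to 343 of 10018 (3.42%). The share ratio of NK droplets, TCM over CM, lay between 0.485 and 0.595. Genes under 20 UMIs, such as Ifng outside NK droplets, could not be compared at this depth.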

Other observations

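One CM droplet of 2999 UMIs that passed no gate held 38 Xcl1 UMIs, with 334 of Ccl4, 37 of Gzma and 22 of Gzmb, and no UMI of the 9 NK markers or of Cd3. It alone held more Xcl1 than the 200 CM NK droplets together (29 UMIs). In TCM, the NK droplet with most Ccl4 (106 UMIs in 3487) held 77 Gzma and 0 Xcl1 UMIs, and the next (94 UMIs in 3684) held 19 Gzma, 11 Gzmb and 11 Xcl1 UMIs.

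Klrd1 was also seen in droplets of the plasmacytoid dendritic gate, with 17 UMIs in CM (7.03 CP100k) and 8 in TCM (4.07). The genes that led this gate included the muscle genes Myl7, Tnni3 and Tnnt2 beside Siglech. The gate thus did not pick out plasmacytoid dendritic cells alone. Droplets of the other dendritic gate held 19 and 14 Klrd1 UMIs. The TCM CD4 T droplet with most Gzma had 6 UMIs in 10150 and 25 UMIs of Mki67 and Top2a, and the CM one had 55 in 16769 with 9. Mast or basophil droplets with Gzmb also held Ccl4, up to 131 UMIs in a CM and 219 in a TCM droplet among those with most Gzmb.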
